A study of Mus musculus with 9 samples.

Results

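The expression of 40 genes of the cell division cycle and of DNA replication was followed in the mouse hippocampus. They were chosen by name from textbook knowledge of this machinery, with earlier results of these data known. All 40 are among the 24411 genes of each expression file, and all 40 belong to the 14867 genes that were tested. They fall into 5 role groups: 11 genes of replication licensing and the replicative helicase, 6 of DNA synthesis and nucleotide supply, 8 cyclins, cyclin-dependent kinases (CDKs) and the transcription factor E2f1, 6 checkpoint and mitotic kinases, and 9 genes of chromosomes, the spindle and mitotic exit.

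The expression values come from bulk RNA-Seq of whole hippocampi of 9 male C57BL/6J mice, 3 in each of 3 groups, labelled as 10 weeks old. CUG300 mice given CWG-cPIP carried an adeno-associated virus (AAV9) whose Egfp transcript ends in a 3′-UTR with 300 CTG repeats, mixed with a cyclic pyrrole-imidazole polyamide at 83 μg/kg that was designed to bind CAG/CTG repeat DNA. Vehicle-treated CUG300 mice carried the same virus without the compound, and CUG10 mice carried a virus with 10 CTG repeats and also received vehicle. All mice were otherwise wild type and were injected at 9 weeks of age bilaterally into the CA1 field, and hippocampi were collected 10 days after gene transfer. The transgene is therefore expressed from a virus in cells around the injection site and not in a mutant strain, and the promoter that drives it is not given in the sources used here. The comparison of CUG300 with CUG10 mice asks which genes differ with the expanded repeat, and that of CWG-cPIP with vehicle asks which genes differ with the compound.

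Values are regularized logarithm (rlog) values from DESeq2, which are on a log2 scale and shrink noisy genes toward their mean across mice, so a fold change of a weakly expressed gene is understated. A difference of 1 on this scale is a doubling. The number of reads per mouse is unknown. Differences between group means were tested with limma, which estimates 1 variance per gene over all 9 mice, and genes with an adjusted p under 0.05 (Benjamini-Hochberg) were called, over the 14867 genes whose mean reached log2 of 10. The p-values measure the spread between these mice only.

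A dividing cell first licenses its replication origins by loading the MCM helicase in G1, copies its DNA in S phase, and then segregates its chromosomes in mitosis. Successive cyclin-CDK pairs drive these steps, and the transcription factors of the E2F family switch on the genes of the first part, whereas genes of the last part are commonly switched on later through CHR elements and CCAAT boxes in their promoters. Most neurons have left the cycle for good. In the adult hippocampus, dividing cells include neural progenitors of the dentate gyrus and oligodendrocyte precursors, and microglia and incoming immune cells can divide after injury or infection. In bulk tissue, fewer cells of a type and less RNA per cell cannot be told apart.

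The promoters of 4 members are shown because these genes were among those called in CUG300 mice and carry the sequence elements named above. Each line reads from 250 bases before to 50 bases after the start site of RefSeq (GRCm38.p6), in the direction of the gene, with matches to the elements in capitals. All 4 genes lie on the minus strand: Cdk1 at chr10:69352863-69353162, Ccnb2 at chr9:70421505-70421804, Mki67 at chr7:135716330-135716629 and Mcm6 at chr1:128359656-128359955.
Cdk1: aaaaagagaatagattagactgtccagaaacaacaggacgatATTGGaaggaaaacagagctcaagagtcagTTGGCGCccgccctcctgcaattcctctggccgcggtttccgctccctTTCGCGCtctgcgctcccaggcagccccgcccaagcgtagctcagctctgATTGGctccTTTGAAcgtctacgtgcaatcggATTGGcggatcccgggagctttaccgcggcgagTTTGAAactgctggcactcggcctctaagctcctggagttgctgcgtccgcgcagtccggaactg
Ccnb2: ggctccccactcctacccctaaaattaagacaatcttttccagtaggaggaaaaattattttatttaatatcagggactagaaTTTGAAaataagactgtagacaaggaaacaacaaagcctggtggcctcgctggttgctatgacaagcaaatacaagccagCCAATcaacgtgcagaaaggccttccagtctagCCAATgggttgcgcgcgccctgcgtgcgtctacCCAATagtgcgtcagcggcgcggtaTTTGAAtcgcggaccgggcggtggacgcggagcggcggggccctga
Mki67: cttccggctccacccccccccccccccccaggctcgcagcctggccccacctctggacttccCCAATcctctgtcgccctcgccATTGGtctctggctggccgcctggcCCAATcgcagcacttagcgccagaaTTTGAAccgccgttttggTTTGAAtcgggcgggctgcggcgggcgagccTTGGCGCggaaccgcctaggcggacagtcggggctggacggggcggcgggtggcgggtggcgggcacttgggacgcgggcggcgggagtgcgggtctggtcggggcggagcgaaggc
Mcm6: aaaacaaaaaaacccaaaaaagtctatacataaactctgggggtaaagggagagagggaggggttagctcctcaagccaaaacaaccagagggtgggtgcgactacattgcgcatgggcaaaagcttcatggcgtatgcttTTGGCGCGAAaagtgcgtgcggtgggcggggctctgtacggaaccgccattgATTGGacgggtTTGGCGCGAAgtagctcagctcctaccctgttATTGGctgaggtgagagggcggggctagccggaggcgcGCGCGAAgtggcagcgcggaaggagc

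The elements searched on both strands were the E2F site in the forms TTGGCGC or TTCCCGC or TTCGCGC or TTGCCGC, the CHR in the forms TTTGAA or TTCGAA, the last of which reads the same on both strands, and the CCAAT box. Cdk1 holds matches to all 3, with E2F matches at −178 and −130, CHR matches at −71 and −15 and 3 CCAAT boxes read on the other strand as ATTGG. Ccnb2 holds 3 CCAAT boxes at −87, −54 and −21 and 2 CHR matches, whereas its window holds no E2F match. Mcm6 holds 5 E2F matches and no CHR match, and 4 of the 5 lie in 2 copies of TTGGCGCGAA, where a match on each strand shares bases with the other.

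Among the 32 members with a promoter window, 15 (46.9%) held an E2F match, 13 (40.6%) a CHR match and 25 (78.1%) a CCAAT box. Of all 27025 genes with a window, the shares were 10.9%, 21.7% and 41.1%. E2F matches stood in 6 of 8 licensing genes and 4 of 6 genes of DNA synthesis, against 1 of 5 kinases and 1 of 7 genes of chromosomes and the spindle. CHR matches ran the other way, with 2 of 8, 0 of 6, 4 of 5 and 5 of 7. In Ccnb1, Mcm7 and Prim1 an E2F match and a CCAAT box share bases. In 26 of 33 windows (Mcm7 has 2) the RefSeq start lay within 100 bases of the 5′ end of the gene in GENCODE. For E2f1 it lay 466 bases inside the gene, so that its window, which held no match, starts in the body of the gene. The windows of Chek1 (407 bases inside), Cdc6 (350) and Mcm7 (539 and 1156) also start there, and their E2F matches are counted above. These are matches of letters and not sites of binding. Gins1, Gins2, Mcm4, Tpx2, Aurkb, Ccne2, Kif20a and Ccna2 are named only.

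**Figure D1:**
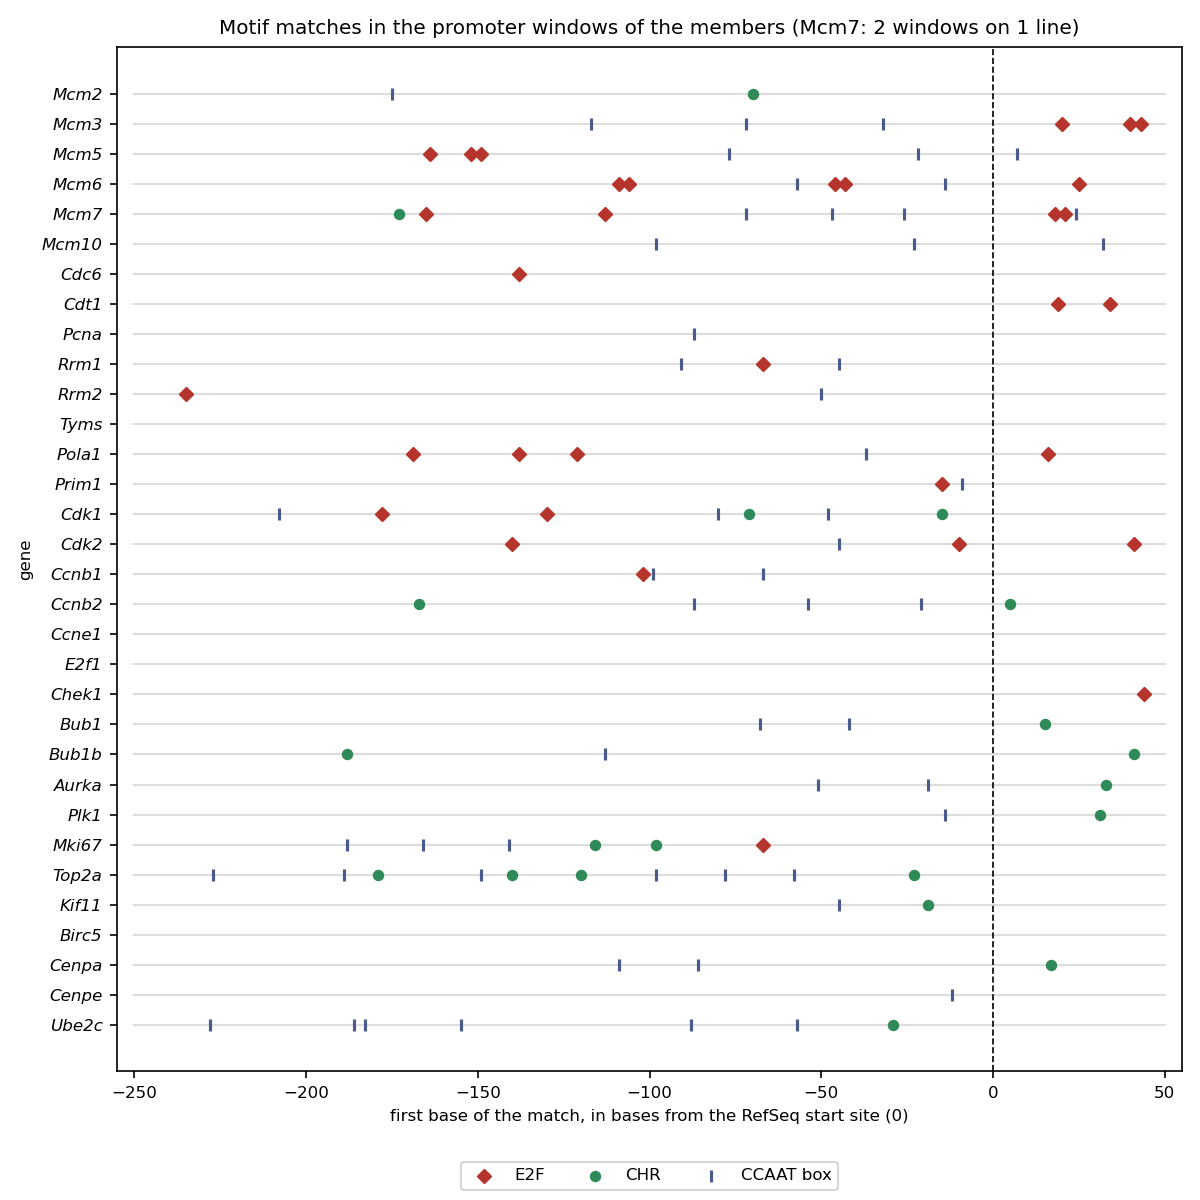
Matches to the E2F site (diamonds), the CHR (circles) and the CCAAT box (bars) in the promoter windows of the 32 members with a window, by distance in bases from the RefSeq start site (horizontal axis) and by gene in the order of the role groups (vertical axis). Diamonds gather in the upper rows, with 6 of 8 licensing genes, and circles in the lower rows, with 5 of 7 genes of chromosomes and the spindle.

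Of the 40 cell cycle and replication genes, 10 were called higher in vehicle-treated CUG300 mice than in CUG10 mice, 1 was called lower and 29 were not called. Across all genes tested, 7.37% were called higher and 3.34% called lower. The members called higher were Mcm6, Tpx2, Mki67, Cdk1, Rrm2, Ccnb2, Mcm3, Ube2c, Ccna2 and Birc5, and the member called lower was E2f1. The median difference of the 40 members was 0.42 on the log2 scale, a fold of 1.34, beside −0.01 over all genes tested. Means were higher in 37 members and lower in 3, beside 48.4% of all genes with a higher mean. In 30 members all 3 CUG300 mice stood above all 3 CUG10 mice, and in 1 (E2f1) below, beside 18.2% and 16.7% of all genes. Members lie among the weaker genes of the files, with means over the 9 mice from 3.75 to 10.23 and a median of 5.60, beside a median of 8.48 over all genes tested, on a scale that is not per length. The lowest mean of a member in any group was 3.58 (CUG10 mice), above the minimum of 3.32, so no member entered the test only through the group in which it was high.

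The numbers of members and of all genes called depended on single mice. With any of the 3 CUG10 mice left out, or without CUG300 vehicle replicate 3, 0 members were called. In these fits at most 2 of all genes were called higher and 0 lower. Without CWG-cPIP replicate 1, which enters only through the pooled variance, 2 members were called (Cdk1 and Mcm6). Of all genes, 216 were then called higher and 49 lower. Without CUG300 vehicle replicate 1, 21 members were called higher and 1 lower, beside 1262 and 796 of all genes. E2f1 was no longer called without CUG300 vehicle replicate 2, where 9 members were called higher, beside 1324 of all genes higher and 1166 lower. The median difference kept its direction in each of these fits, between 0.33 and 0.47, and was 0.35 after median centering and 0.24 after quantile normalization. Over all genes, the median moved to −0.09 and −0.08 in these 2 rescalings, from −0.01 without them. Quantile normalization left 4 members called higher (Ccnb2, Cdk1, Mcm6 and Tpx2) and 1 called lower (E2f1), beside 888 and 642 of all genes. Over 10 other settings of scaling, filter, variance model or threshold, Mcm6 was called in 9 and Birc5 in 4, the most and the fewest of the 11 members. The filter at a mean of log2 of 100 left only 10 members, without Birc5. Members that it removed were counted as not called, so these counts also depend on expression level. In both rescalings, 35 means were higher and 5 lower.

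**Figure D2:**
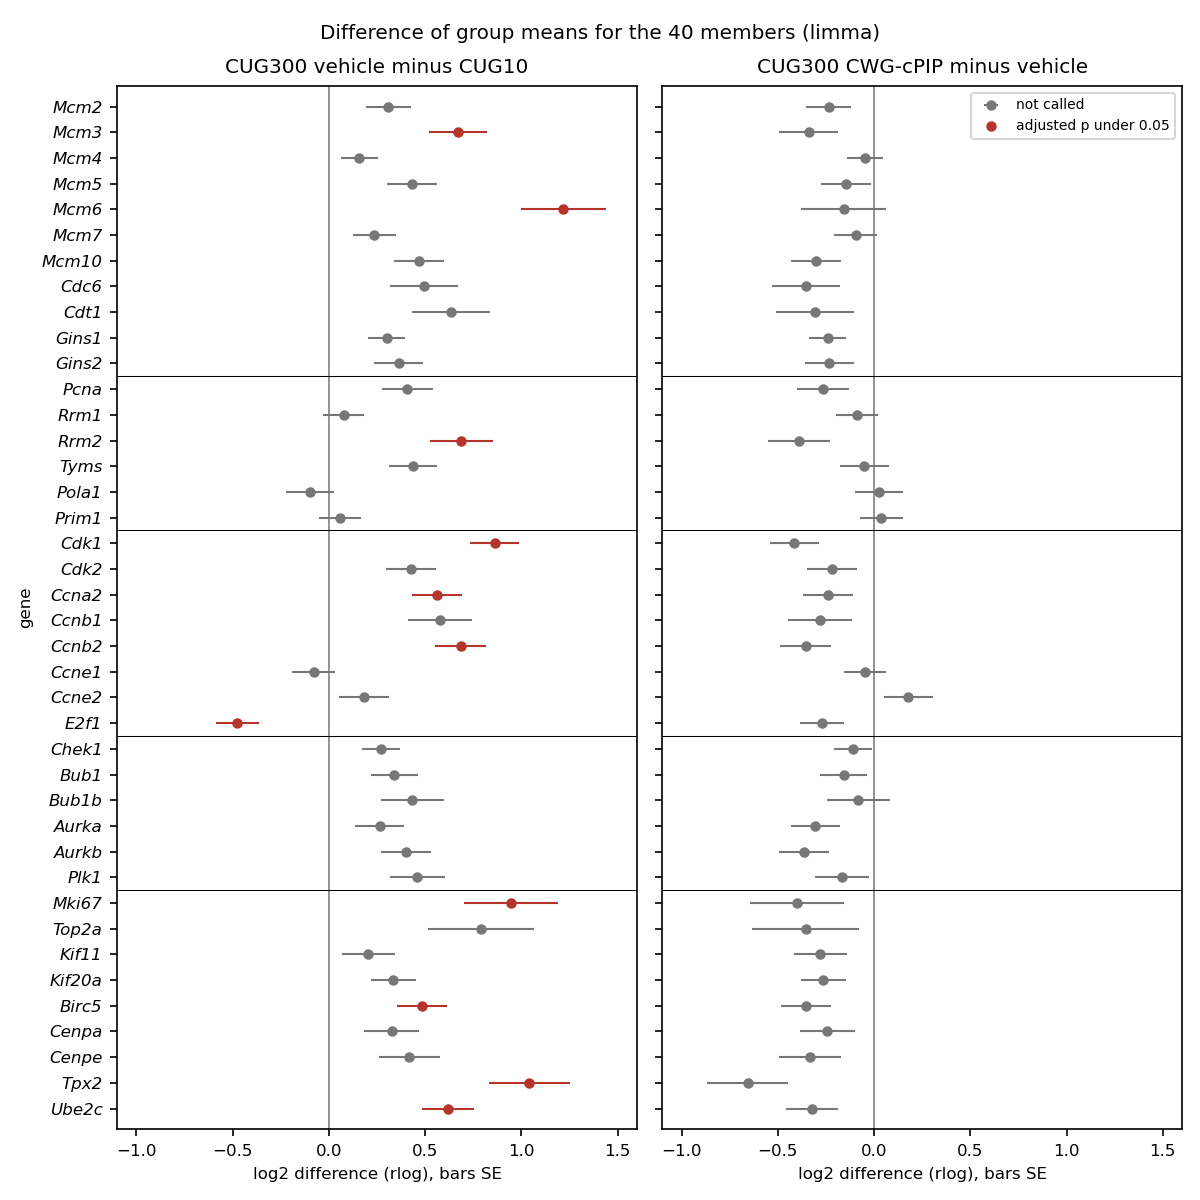
Difference of group means (rlog, log2 scale, horizontal axes) for each of the 40 members (vertical axis, role groups separated by lines), with CUG300 vehicle minus CUG10 on the left and CUG300 CWG-cPIP minus CUG300 vehicle on the right. Points are limma estimates with their SE and red marks an adjusted p under 0.05: 11 members on the left, with Mcm6 at 1.22 and E2f1 at −0.48, and 0 on the right.

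The licensing genes prepare origins in G1 and open the DNA in S phase. Mcm2 to Mcm7 encode the 6 subunits of the MCM helicase, Cdc6 and Cdt1 load it, Gins1 and Gins2 belong to the GINS part of the active helicase and Mcm10 helps to start it. All 11 had higher values in the 3 vehicle-treated CUG300 mice than in any CUG10 mouse, beside 18.2% of all genes. Differences ran from 0.16 (Mcm4) to 1.22 (Mcm6) with a median of 0.43. Of the 11, 2 were called higher, beside 7.37% of all genes.

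Mcm6, on chromosome 1 of GRCm38 (128331590 to 128359664), stood at 9.38, 9.69 and 9.58 in vehicle-treated CUG300 mice, against 8.17, 8.42 and 8.41 in CUG10 mice. The difference of 1.22 (SE 0.22, limma adjusted p = 0.0222) was the largest of the 40 members and a fold of 2.33. With CWG-cPIP, Mcm6 stood at 9.51, 8.85 and 9.83, so that the treated mice spanned 0.98 and the highest of them lay above every vehicle-treated mouse. Mcm3, another subunit of the same ring, stood at 6.73, 7.14 and 7.24 in vehicle-treated CUG300 mice, against 6.25, 6.46 and 6.37 in CUG10 mice (difference 0.67, SE 0.15, limma adjusted p = 0.0314). Mcm2, whose product lies beside that of Mcm6 in the ring, stood at 6.72, 7.0 and 6.94 in vehicle-treated CUG300 mice, against 6.54, 6.66 and 6.53 in CUG10 mice, and did not pass (difference 0.31, SE 0.12, limma adjusted p = 0.111). The 6 subunits differed by unequal amounts, with Mcm4 at 0.16, Mcm7 at 0.23 and Mcm5 at 0.43. Mcm10 had an adjusted p of 0.052 by limma with a difference of 0.47, just outside the threshold.

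The DNA synthesis genes copy the genome and make its building blocks. Of these, 1 of 6 was called higher, beside 7.37% of all genes, with a median of 0.24 over the group. Rrm2, the small subunit of ribonucleotide reductase that supplies deoxynucleotides, stood at 5.96, 6.48 and 6.47 in vehicle-treated CUG300 mice, against 5.60, 5.77 and 5.48 in CUG10 mice (difference 0.69, SE 0.16, limma adjusted p = 0.0343). The partner subunit Rrm1, whose level is known to vary less through the cycle, stood at 8.43, 8.62 and 8.44, against 8.44, 8.42 and 8.40, and these groups overlapped (difference 0.08). Pcna, the sliding clamp of DNA polymerases, stood at 10.67, 10.24 and 10.46, against 10.12, 10.06 and 9.96. Its groups did not overlap, and it did not pass (difference 0.41, SE 0.13, limma adjusted p = 0.081). Tyms, which makes thymidylate, had a difference of 0.44, while the primase subunit Prim1 had 0.06 and Pola1, the catalytic subunit of the priming polymerase, had −0.10.

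Of the 8 cyclins, CDKs and E2f1, 3 were called higher and 1 lower, beside 7.37% and 3.34% of all genes. Cdk1, the kinase that drives entry into mitosis, stood at 5.31, 5.57 and 5.54 in vehicle-treated CUG300 mice, against 4.41, 4.68 and 4.74 in CUG10 mice (chromosome 10 of GRCm38, 69335146 to 69352938). Its difference of 0.86 (SE 0.13) had the lowest adjusted p among members, 0.0207 by limma, and a fold of 1.82. Ccnb2 encodes a B-type cyclin that pairs with Cdk1, and stood at 4.85, 5.33 and 5.19 in vehicle-treated CUG300 mice, against 4.39, 4.45 and 4.48 in CUG10 mice (difference 0.68, SE 0.13, limma adjusted p = 0.0243). In both genes every vehicle-treated CUG300 mouse stood above every CUG10 mouse. Ccna2, the cyclin of S phase and G2, stood at 6.32, 6.56 and 6.58, against 5.96, 5.95 and 5.86 (difference 0.56, SE 0.13, limma adjusted p = 0.0328). It overlaps Exosc9 on the other strand, and since the use of strand in counting is not stated, its value is uncertain. Ccnb1 and Cdk2 had differences of 0.58 and 0.43 without passing, and the E-type cyclins of the entry into S phase, Ccne1 and Ccne2, had −0.08 and 0.18 with overlapping groups.

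E2f1, the founding E2F activator of replication genes, moved opposite to most of the list. It stood at 7.34, 7.03 and 7.11 in vehicle-treated CUG300 mice, against 7.61, 7.68 and 7.62 in CUG10 mice, and fell by 0.48 (log2 difference, SE 0.11, limma adjusted p = 0.0344). With CWG-cPIP it stood at 6.87, 6.87 and 6.93, below every mouse of both other groups. E2f1 lies on chromosome 2 of GRCm38 (154559407 to 154569892) and overlaps no other gene there.

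**Figure D3:**
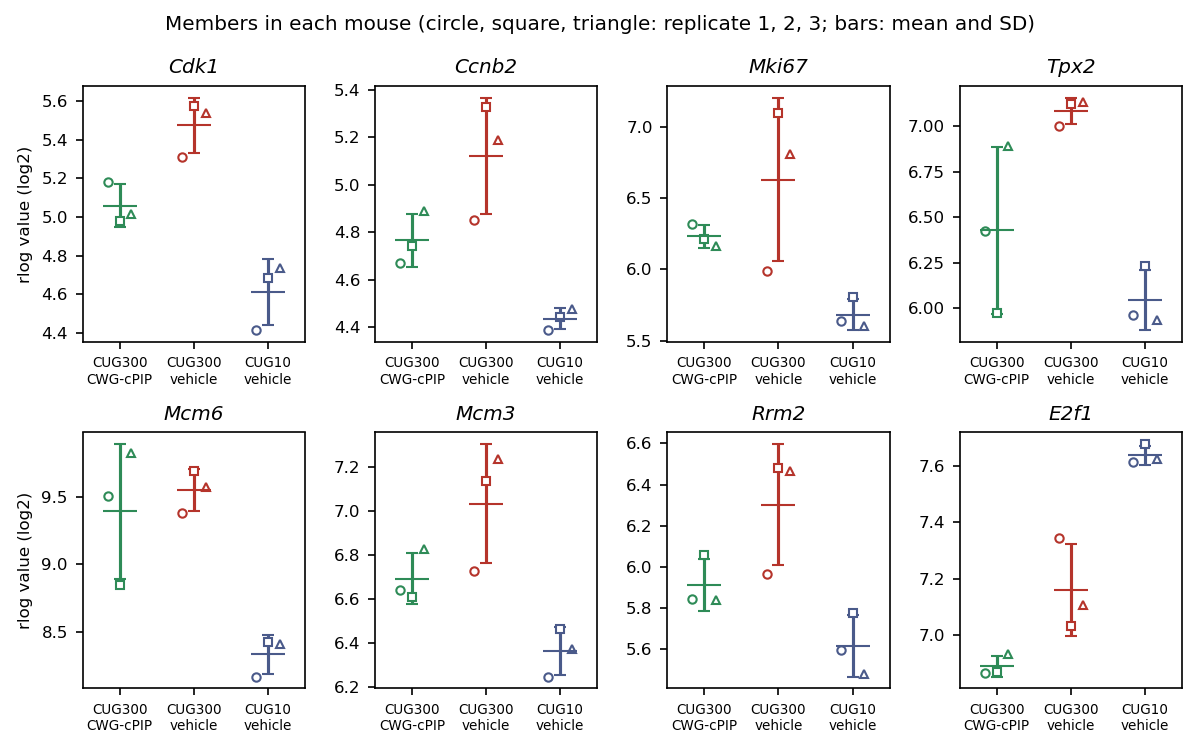
rlog values (log2 scale, vertical axes) of 8 members called in CUG300 against CUG10 mice, in CWG-cPIP-treated CUG300 mice, vehicle-treated CUG300 mice and CUG10 mice (horizontal axes, left to right). Points are single mice (circle, square and triangle for replicates 1, 2 and 3) and bars are mean and SD of 3 mice; Cdk1 averaged 5.06 with CWG-cPIP, 5.47 with vehicle and 4.61 in CUG10 mice, whereas E2f1 averaged 6.89, 7.16 and 7.64.

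The 6 checkpoint and mitotic kinases all had higher means in CUG300 mice, by 0.26 (Aurka) to 0.46 (Plk1) with a median of 0.37. Of the 6, 0 passed, beside 7.37% of all genes called higher. At an unadjusted p under 0.05, limma gave 5 of the 6 as higher, beside 16.3% of all genes. Chek1, the kinase that halts the cycle when replication stalls, stood at 4.34, 4.58 and 4.57 in vehicle-treated CUG300 mice, against 4.16, 4.31 and 4.22 in CUG10 mice (difference 0.27, SE 0.10, limma adjusted p = 0.106). Bub1 and Bub1b guard the attachment of chromosomes to the spindle, and Aurkb and Plk1 drive mitosis, and their differences lay between 0.34 and 0.46.

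Of the 9 genes of chromosomes, the spindle and mitotic exit, 4 were called higher, beside 7.37% of all genes. All 9 had higher means, beside 48.4% of all genes. Mki67, whose product coats mitotic chromosomes and is a common marker of dividing cells, stood at 5.99, 7.09 and 6.81 in vehicle-treated CUG300 mice, against 5.64, 5.81 and 5.60 in CUG10 mice (difference 0.95, SE 0.24, limma adjusted p = 0.0422). The CUG300 mice spanned 1.11, and replicate 1 stood below the other two. Tpx2, a spindle assembly factor that activates Aurka, stood at 7.0, 7.12 and 7.13, against 5.96, 6.23 and 5.94 (difference 1.04, SE 0.21, limma adjusted p = 0.0254), a fold of 2.06 with an SD of 0.07 in vehicle-treated CUG300 mice. Ube2c, the ubiquitin-conjugating enzyme of the anaphase-promoting complex, stood at 4.74, 5.13 and 5.09, against 4.30, 4.58 and 4.23 (difference 0.62, SE 0.14, limma adjusted p = 0.0294). It overlaps Tnnc2 on the other strand, and its value carries the same uncertainty as that of Ccna2. Birc5, the survivin subunit of the chromosomal passenger complex, stood at 5.27, 5.23 and 5.42, against 4.75, 4.92 and 4.81 (difference 0.48, SE 0.13, limma adjusted p = 0.0459), which is just inside the threshold. None of the 4 overlapped between the groups. Top2a, the topoisomerase that untangles replicated chromosomes, had a difference of 0.79 but did not pass (limma adjusted p = 0.0944), and its values of 6.23, 7.36 and 7.05 overlapped those of CUG10 mice, 5.81, 6.39 and 6.08. The remaining members of the group, Kif11, Kif20a, Cenpa and Cenpe, had differences from 0.20 to 0.42.

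**Figure D4:**
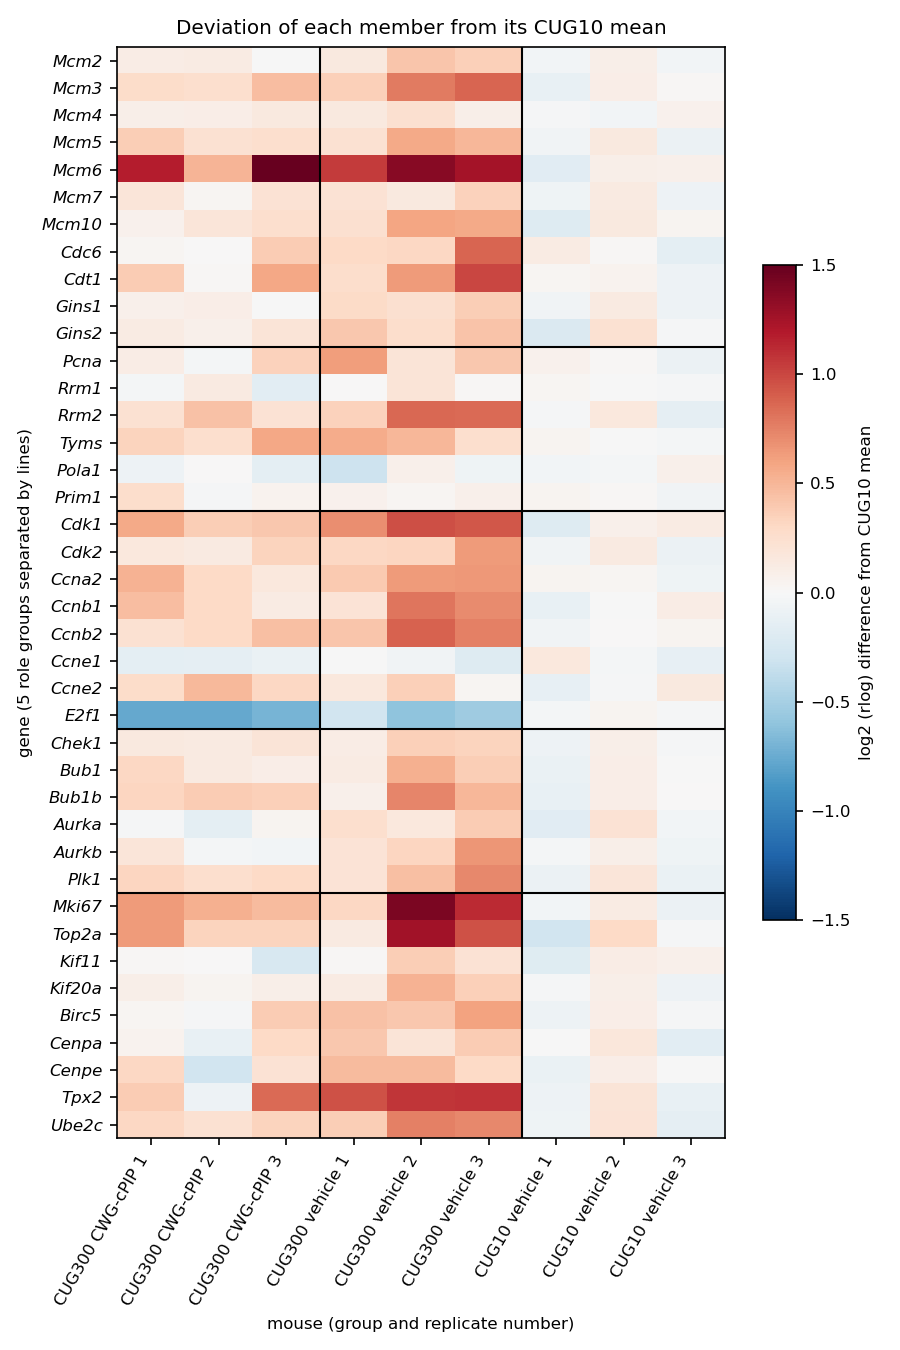
Deviation of each of the 40 members (vertical axis, role groups separated by lines) from its mean in CUG10 mice, on the log2 (rlog) scale as colour, in each of the 9 mice (horizontal axis: CUG300 with CWG-cPIP, CUG300 with vehicle, CUG10 with vehicle). Colours end at −1.5 and 1.5; most rows are red in the vehicle-treated CUG300 columns, where replicate 1 is paler in many rows, and E2f1 is blue in all 6 CUG300 columns.

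Beyond the 40 members, 3 wider lists were read in the same fit. Of 35 other replication genes tested (37 listed), 3 (8.57%) were called higher in vehicle-treated CUG300 mice than in CUG10 mice and 0 lower, with a median of 0.10. This share is near the 7.37% of all genes called higher. At an unadjusted p under 0.05 limma gave 9 of the 35 as higher and 0 as lower, beside 16.3% and 14.2% of all genes. Uhrf1, which couples DNA methylation to replication, stood at 5.37, 5.91 and 5.84, against 5.02, 5.16 and 5.02 (difference 0.64, SE 0.17, limma adjusted p = 0.044), and Rfc3, a subunit of the clamp loader, had 0.52 (limma adjusted p = 0.0816). Of 45 other mitosis genes (49 listed), 4 (8.89%) were called higher, again near the 7.37% of all genes, and 0 lower, with a median of 0.24. At an unadjusted p under 0.05 limma gave 18 as higher and 1 as lower, beside the same 16.3% and 14.2%. In 21 of the 45 all 3 CUG300 mice stood above all 3 CUG10 mice, and in 1 below, beside 18.2% and 16.7% of all genes. The largest differences there, Ncapg2 of the condensin complex at 0.67 and Pttg1, the securin, at 0.60, did not pass (limma adjusted p = 0.12 and 0.282). Named after their values were seen, the other called genes were Tk1 and Orc4 of replication (0.52 and 0.38) and Cdc20, Cdca3, Kif2c and Smc4 of mitosis (0.37 to 0.52).

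The third list held G1 cyclins, CDK inhibitors and the RB-E2F axis, of which 24 of 28 genes were tested, with 3 (12.5%) called higher, beside 7.37% of all genes, and a median of 0.24. limma called 0 lower. At an unadjusted p under 0.05 by limma, 11 were higher and 2 lower, beside 16.3% and 14.2% of all genes. Rbl1 encodes p107, a pocket protein that represses E2F target genes, and stood at 6.56, 7.10 and 6.94 in vehicle-treated CUG300 mice, against 5.73, 5.84 and 5.83 in CUG10 mice (difference 1.07, SE 0.22, limma adjusted p = 0.0265). Cdkn1a, the CDK inhibitor p21, had the largest difference of the list, 1.09, but did not pass (SE 0.48, limma adjusted p = 0.158). It stood at 11.26, 10.04 and 12.08 in CWG-cPIP-treated CUG300 mice, 12.18, 11.39 and 12.60 in vehicle-treated CUG300 mice, and 10.75, 11.25 and 10.89 in CUG10 mice, so the treated mice overlapped both other groups, and 2 of the 3 vehicle-treated mice lay above every treated mouse. The other called genes, named after their values were seen, were Ccnd3, a D-type cyclin of G1, at 0.68 and Btg1, an antiproliferative gene, at 0.88. Called genes of this list include both a cyclin and genes known to restrain division.

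Markers of other cells were read in the same comparison, in which 7.37% of all genes were called higher and 3.34% lower. The summed level of 8 monocyte and border macrophage markers (log2 of the sum, as for all sums here) lay at 12.20 to 12.83 in vehicle-treated CUG300 mice, against 9.25 to 10.55 in CUG10 mice, and 5 of 8 markers were called higher (Ly6c2, Ccr2, Plac8, S100a4 and Ms4a7, named after their values were seen). The 9 measured T and NK cell markers of 10 listed summed to 9.74 to 10.08, against 7.72 to 8.20, with 7 called higher. The 10 microglia markers summed to 13.76 to 13.94, against 13.02 to 13.42, with 4 called higher (Aif1, Tmem119, C1qa and Itgam, named after their values were seen), and 8 reactive astrocyte markers to 15.48 to 15.91, against 14.02 to 14.67, with 8 called higher. Of the 10 microglia markers, 2 had lower means. The 5 B cell markers summed to 5.93 to 7.13, against 5.50 to 5.56, and 1 of the 3 that were tested was called higher. The 6 endothelial markers summed to 10.95 to 11.38, against 10.64 to 10.80, with 0 called. Neural progenitor and oligodendrocyte precursor markers had other values, and the first of these lists also holds markers of immature neurons. The 8 markers of neural progenitors and immature neurons summed to 10.18 to 10.45, against 10.19 to 10.39, and the 7 of oligodendrocyte precursors to 11.35 to 11.97, against 12.11 to 12.40. Of both lists, limma called 0 markers, and with an unadjusted p under 0.05 it gave 1 progenitor marker higher and 1 lower, and 0 precursor markers higher and 5 lower, beside 16.3% of all genes higher and 14.2% lower. The 8 choroid plexus and ependyma markers, which reflect tissue beside the hippocampus, ranged over 14.04 to 15.98, against 10.78 to 14.91, with 0 called. The 8 hippocampal neuron markers summed to 13.17 to 13.71, against 13.65 to 13.69, with 1 called lower. No marker in any of these lists stood at 0 in all 9 mice. The part of these cells in the differences of the members was not tested.

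With CWG-cPIP, 37 members had lower means than in vehicle-treated CUG300 mice and 3 (Pola1, Prim1 and Ccne2) had higher means, but limma called 0 members and 0 of all genes (0%), with a smallest adjusted p of 0.483. Of all genes tested, 50.6% had a lower mean. Unadjusted p-values under 0.05 were found for 11 members that were lower and 0 that were higher, beside 3.6% of all genes for lower, and 12 had all treated mice below all vehicle-treated mice, beside 3.5% of all genes. These 12 were Mcm2, Gins1, Gins2, Cdk1, E2f1, Aurka, Aurkb, Kif11, Kif20a, Birc5, Tpx2 and Ube2c. The median difference of the members was −0.25. This comparison and the one with CUG10 mice share the vehicle-treated CUG300 mice, so a high value in those mice enters both.

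Tpx2 had the largest difference with CWG-cPIP, −0.66 (SE 0.21), with 6.42, 5.97 and 6.89 in treated mice, against 7.0, 7.12 and 7.13 in vehicle-treated mice. Its size rested on CWG-cPIP replicate 2, without which the difference of Tpx2 was −0.43 and that of Rrm2 was larger, at −0.46. Cdk1 stood at 5.18, 4.98 and 5.01, against 5.31, 5.57 and 5.54, a difference of −0.41 (SE 0.13). Both genes had an adjusted p of 0.483 by limma and no overlap between the groups. Mki67 stood at 6.32, 6.21 and 6.16, against 5.99, 7.09 and 6.81, so that the lowest vehicle-treated mouse lay under all treated mice (difference −0.40, SE 0.24). The difference of Mki67 was −0.72 without vehicle-treated replicate 1 and −0.17 without vehicle-treated replicate 2. Rrm2 showed 5.84, 6.06 and 5.84, against 5.96, 6.48 and 6.47 (difference −0.39), and Ccnb2 4.67, 4.74 and 4.89, against 4.85, 5.33 and 5.19 (difference −0.36). Of these, Rrm2 and Ccnb2 overlapped between the groups through vehicle-treated replicate 1. In treated mice, Birc5 stood at 4.86, 4.80 and 5.20 and Ube2c at 4.68, 4.60 and 4.71, below all vehicle-treated mice. Mcm3 stood at 6.64, 6.61 and 6.83 and Ccna2 at 6.45, 6.22 and 6.08, and both overlapped the vehicle-treated mice. Of the members that were not called against CUG10 mice, Mcm2 stood at 6.69, 6.70 and 6.57, Pcna at 10.16, 10.01 and 10.39 and Chek1 at 4.37, 4.36 and 4.43 in treated mice, with differences from vehicle of −0.24, −0.26 and −0.11. Mcm6 differed by −0.16 (SE 0.22), and by 0.12 without CWG-cPIP replicate 2. By role group, the medians were −0.24 for licensing, −0.07 for DNA synthesis, −0.25 for cyclins and CDKs, −0.16 for the kinases and −0.33 for chromosomes and the spindle. Quantile normalization gave a median of −0.16 over all members, with 34 means lower and 6 higher.

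Against CUG10 mice, CWG-cPIP-treated CUG300 mice had 34 members with higher and 6 with lower means, beside 50.1% of all genes with a higher mean, and a median of 0.16. limma called 0 members and 0 of all genes (0%). After quantile normalization 28 means were higher, and 12 were lower. At an unadjusted p under 0.05, 6 members were higher (Mcm6, Tyms, Cdk1, Ccna2, Ccnb2 and Ccne2) and 1 lower (E2f1), beside 8.12% and 5.31% of all genes. Groups did not overlap for 18 members that were higher and for E2f1, which was lower, beside 13.4% and 12.4% of all genes. Mcm6 differed by 1.06 (SE 0.22, limma adjusted p = 0.13), and E2f1 by −0.75 (SE 0.11, limma adjusted p = 0.097). Without CWG-cPIP replicate 2, these 2 members passed, at 1.33 for Mcm6 and −0.74 for E2f1, beside 497 of all genes higher and 70 lower.

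Single mice of a group differed in these genes. The mean deviation of the 40 members from their CUG10 means was 0.22, 0.12 and 0.24 in CUG300 mice given CWG-cPIP, 0.28, 0.49 and 0.50 in vehicle-treated CUG300 mice, and −0.06, 0.09 and −0.03 in CUG10 mice. The lowest vehicle-treated mouse, replicate 1, was thus close to the highest treated mice, and it held the lowest value of its group in 26 of 40 members. Among treated mice, replicate 2 was the lowest in 21 members and stood under replicate 3 by 0.98 in Mcm6, 0.92 in Tpx2, 0.56 in Cdt1 and 0.51 in Cenpe. These were the largest such gaps. Over the 40 members, replicate 3 stood above replicate 2 in 26 and below it in 14, with a median gap of only 0.06, and Rrm1 (−0.29), Kif11 (−0.25) and Rrm2 (−0.22) ran furthest the other way. In the same treated mice, T and NK cell markers summed to 8.91, 8.07 and 10.24, monocyte and border macrophage markers to 11.18, 10.08 and 12.69, and microglia markers to 13.58, 13.30 and 13.77. Reactive astrocyte markers (15.33, 14.54 and 15.66) and B cell markers (5.66, 5.59 and 6.16) were likewise lowest in replicate 2 and highest in replicate 3. Other lists ran the other way, with progenitor and immature neuron markers at 10.52, 10.55 and 10.19 and oligodendrocyte precursor markers at 11.87, 12.18 and 11.42. In vehicle-treated mice, replicate 1 was the lowest in T and NK cell markers (9.74, 9.88 and 10.08) and progenitor markers (10.18, 10.44 and 10.45). It was also the lowest in B cell and endothelial markers. Replicate 1 was not the lowest in microglia markers (13.94, 13.76 and 13.87), nor in those of monocytes, reactive astrocytes, oligodendrocyte precursors or hippocampal neurons. It had the highest sum of choroid plexus markers (15.98, 14.04 and 14.90), which all 3 treated mice had at 10.74 to 11.08. The part of these markers in the members' values was not tested.

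**Figure D5:**
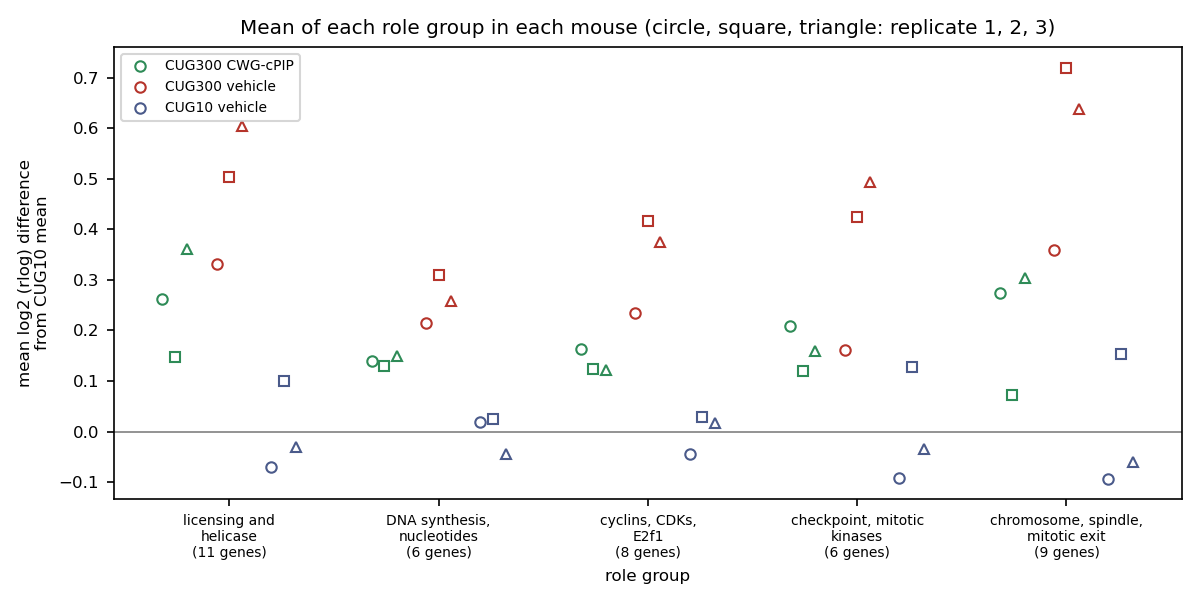
Mean log2 (rlog) difference of each role group from its CUG10 mean (vertical axis) in each mouse, for the 5 role groups (horizontal axis), with CWG-cPIP-treated CUG300 mice, vehicle-treated CUG300 mice and CUG10 mice from left to right in each. Points are single mice (circle, square and triangle for replicates 1, 2 and 3); over all 40 members the means were 0.12 to 0.24, 0.28 to 0.50 and −0.06 to 0.09.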

How the data were processed

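Bulk RNA of 9 hippocampi, 3 mice in each of 3 groups taken from the labels, was sequenced from a directional library by the authors. Trimming used Trim Galore 0.6.6, alignment to GRCm38/mm10 used STAR 2.7.9a, quantification used RSEM 1.3.3 and rlog values came from DESeq2 1.36.0, per the paper's methods and the submitters' processing notes. The authors deposited these values on the log2 scale, with 1 value per gene and mouse, scaled by size factors and shrunken, so no depth can be given and no count model was used. The annotation, the rlog options and the use of strand are not given in the sources used here. Symbols that had been turned into dates, 27 in all with 23 among the genes tested, are not named.

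Genes whose mean over the 9 mice reached log2 of 10 were fitted with limma 3.58.1 in R 4.3.3, with 1 mean per group, a variance trend, all 9 mice and Benjamini-Hochberg adjustment within each comparison. The procedure was tested on simulated data. The members and lists were chosen with earlier results of these data known. Values per mouse are given for members called in any comparison and the first written in each role group, with the 2 largest differences of each wider list. Marker sums are log2 of summed linear values. Promoters came from RefSeq (GRCm38.p6) and gene positions from GENCODE, matched by symbol. Alternatives were other scalings, filters, variance models and thresholds, only the groups compared, a replicate block and leaving out each mouse.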

Additional observations from a re-analysis of the deposited data

How the results depend on the processing

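The median difference of the members kept its direction in all 3 comparisons under every alternative run, while counts of calls were sensitive. For vehicle-treated CUG300 mice against CUG10 mice, quantile normalization gave 4 members and 888 genes higher (median of the members 0.24, and −0.16 with CWG-cPIP against vehicle). A mean of at least log2 of 100, with 10 members left, gave 2 members higher, 725 genes higher and medians of 0.27 and, with CWG-cPIP against vehicle, −0.15. Median centering gave 908 genes lower. An adjusted p under 0.1 gave 25 members higher, 1823 genes higher and 1285 lower, and with CWG-cPIP against CUG10 mice 1 member lower (E2f1), 11 genes higher and 10 lower. An adjusted p under 0.01 gave 0 members and 0 genes in either direction. With only the 2 groups compared, 0 members were lower in CUG300 mice, and the other comparisons gave 1 gene higher and 2 lower against vehicle, and 4 higher and 10 lower against CUG10 mice. Deviations of same-numbered mice from their group means correlated at 0.14, −0.21 and −0.02 for CUG300 vehicle with CUG10. The values were −0.18, 0.40 and 0.41 for CWG-cPIP with CUG300 vehicle, and −0.17, −0.50 and −0.33 for CWG-cPIP with CUG10. Deviations within a group of 3 mice depend on each other, so this check cannot tell whether the numbers pair the mice. With the replicate block, 9 members and 1107 genes were higher in CUG300 mice, 0 members and 405 genes were lower, and 0 members were called with CWG-cPIP.

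Leaving out each mouse gave, for CUG300 vehicle against CUG10, 0 to 21 members higher, 0 to 1 lower, 0 to 1525 genes higher, 0 to 1166 lower and medians of 0.33 to 0.47. With CWG-cPIP against vehicle it gave 0 to 2 genes higher and 0 to 1 lower, and against CUG10 mice 0 to 1 members higher, 0 to 1 lower, 0 to 497 genes higher and 0 to 70 lower, with the most without CWG-cPIP replicate 2. Directions of single differences turned for Chek1 with CWG-cPIP against vehicle (0.011) and Mcm2 with CWG-cPIP against CUG10 (−0.050) under quantile normalization, and when single treated mice were left out: Mcm6 ran from −0.37 to 0.12 against vehicle, and Pttg1 from −0.25 to 0.41 and Cdkn1a from −0.31 to 0.71 against CUG10, each highest without replicate 2 and lowest without replicate 3. The cause was not tested.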
